A study of Mus musculus with 6 samples.

Results

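The V1r receptors are a family of G protein-coupled receptors of the vomeronasal organ, and 119 of the 19938 genes measured here belonged to it. They were taken by symbol, as Vmn1r or V1r genes read by a probe set with 1 symbol, with the probe set of the highest mean over all 6 arrays standing for each gene. Gene expression had been measured on Affymetrix 1.0 ST arrays in EGFP-positive cells, sorted from the main olfactory epithelium dissected out of mouse embryos at E18.5. The groups were Fezf1-/- cells (3 arrays) and Fezf1+/- cells (3 arrays), both on a C57BL/6 background. The gene Fezf1 encodes a zinc-finger protein that binds DNA and is used by olfactory neurons and the forebrain. Its targeted allele places EGFP under the Fezf1 promoter, so every sorted cell carried at least 1 targeted allele, the Fezf1+/- cells included. The sort selected for cells that use this promoter, but how pure the samples were was not measured. Fezf1-/- replicate 1 read high for markers of other cell types, as given further on. The labels name no wild-type sample and do not say how many embryos a sample came from, so p-values measure only how these samples spread, which may be technical.

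V1r receptors are made by sensory neurons of the apical layer of the vomeronasal organ, where they detect small pheromone molecules and signal through the G protein subunit Gnai2. A neuron typically uses a single V1r gene, and the genes lie in clusters of similar copies. Neurons of the main olfactory epithelium normally use odorant receptors instead. The comparison asked which V1r receptors rise above background in cells that lack Fezf1, and on which of the Fezf1-/- arrays.

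On deposited log2 signals, 12 V1r receptors were higher in Fezf1-/- cells when Fezf1-/- replicate 1 was left out, among them Vmn1r13, Vmn1r171, Vmn1r178 and Vmn1r40. Over all 6 arrays 0 passed. In Fezf1+/- cells all 119 receptors were near the bottom of the signal range, at means of 2.73 to 4.95 and below a background level described further on. That level came from several gene families and lay near the median of all genes. Vmn1r171 among others lay above the level of 1 of these families alone, the bitter taste receptors. The differences of the 119 receptors are differences of deposited signal near its floor. They do not measure the size of a change in RNA and give no order of sizes. The receptors called were high on Fezf1-/- replicates 2 and 3 but not on replicate 1. On each array 103 to 118 of the 119 receptors lay below the lower quartile of all genes, with 0 of 119 receptors above the median gene in their mean over all 6 arrays.

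Fezf1 itself read 5.56, 5.92 and 6.28 on the Fezf1-/- arrays, against 11.25, 11.12 and 11.30 on the Fezf1+/- arrays, so it was low on all 3 arrays labelled Fezf1-/-. Fezf1-/- replicate 1 stood apart, with correlations across genes of 0.905 to 0.935 to the other arrays, where the other 5 correlated at 0.975 to 0.995 with each other. The labelled cell type showed in Omp, the olfactory marker protein of mature olfactory neurons, which read 9.09, 10.77 and 10.84 in Fezf1-/- cells and 11.84, 11.82 and 12.12 in Fezf1+/- cells. The comparisons of the groups are therefore given with and without Fezf1-/- replicate 1.

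**Figure D1:**
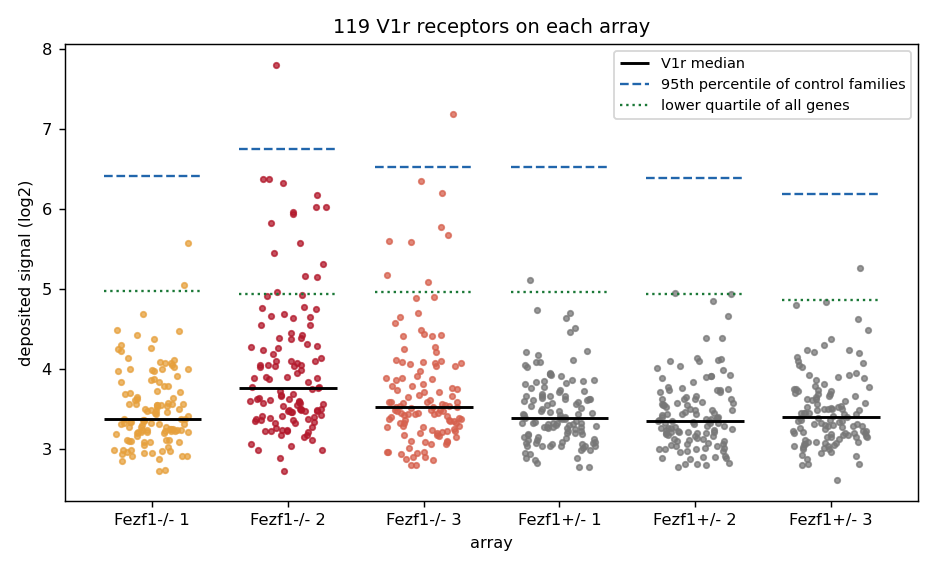
Deposited log2 signal of the 119 V1r receptors (points) on each Fezf1-/- and Fezf1+/- array, with the V1r median (solid line), the 95th percentile of control gene families (dashed) and the lower quartile of all genes (dotted). The upper tail reaches 7.80 on Fezf1-/- replicate 2 and 7.19 on replicate 3, and is at or below 5.58 on Fezf1-/- replicate 1 and on the Fezf1+/- arrays.

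Over their first 50 coding bases some of the moving receptors differ by only a few bases from a relative, so these starts are shown before the values. Further coding bases were not compared. Windows around annotated gene starts were found in RefSeq (GRCm38.p6) for 105 of the 119 receptors, and in 85 of them the annotated start is an ATG that opens a frame without a stop codon over the first 50 bases. The first set holds V1rb receptors from 1 cluster on chromosome 6, of which Vmn1r50, Vmn1r49, Vmn1r44 and Vmn1r40 were called without Fezf1-/- replicate 1 and Vmn1r46 was not. Capitals mark bases that differ from Vmn1r50, whose window is chr6:90107275-90107324 on the plus strand.
Vmn1r50: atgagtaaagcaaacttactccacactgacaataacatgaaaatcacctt
Vmn1r49: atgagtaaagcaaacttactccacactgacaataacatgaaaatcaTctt
Vmn1r44: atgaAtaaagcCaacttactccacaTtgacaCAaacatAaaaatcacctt
Vmn1r40: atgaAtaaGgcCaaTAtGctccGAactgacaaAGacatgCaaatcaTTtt
Vmn1r46: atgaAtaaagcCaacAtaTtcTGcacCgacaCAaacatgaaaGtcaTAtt
Vmn1r49 lies at chr6:90072969-90073018 on the minus strand, and on the plus strand lie Vmn1r44 at chr6:89893274-89893323, Vmn1r40 at chr6:89714203-89714252 and Vmn1r46 at chr6:89976171-89976220. Over these 50 bases Vmn1r49 was 98% identical to Vmn1r50, Vmn1r44 was 88%, Vmn1r46 was 76% and Vmn1r40 was 74% identical to it. Vmn1r49 and Vmn1r50 differ at 1 base here, but where their probes lie was not examined. Their probe sets may read each other's transcripts, and their values are uncertain to that extent.

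A further 2 sets pair a receptor that was high on a Fezf1-/- array with a relative in the same chromosome 6 cluster of V1rc genes. No compared receptor was closer by these bases, though only receptors whose window opens with an ATG were compared. Vmn1r4 was as close to Vmn1r13 as Vmn1r15 was. Capitals mark bases that differ from the first of each pair, and the pairs were chosen after their values were seen.
Vmn1r15: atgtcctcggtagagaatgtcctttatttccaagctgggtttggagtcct
Vmn1r13: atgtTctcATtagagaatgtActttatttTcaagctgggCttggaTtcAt
Vmn1r4: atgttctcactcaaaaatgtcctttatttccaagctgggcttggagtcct
Vmn1r27: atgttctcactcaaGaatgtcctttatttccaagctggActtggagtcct
Vmn1r13 (chr6:57209858-57209907, plus strand) was 84% identical to Vmn1r15 (chr6:57258149-57258198, plus strand), and Vmn1r27 (chr6:58215968-58216017, minus strand) was 96% identical to Vmn1r4 (chr6:56956513-56956562, plus strand). The relatives stayed low. Vmn1r15 read 3.25, 3.25 and 3.43 in Fezf1-/- cells, against 3.13, 3.10 and 3.29 in Fezf1+/- cells. Vmn1r4 read 2.91, 2.98 and 2.86 in Fezf1-/- cells, against 2.77, 2.89 and 3.17 in Fezf1+/- cells. Both lay near the lowest values of the arrays throughout, while Vmn1r13 and Vmn1r27 did not.

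Vmn1r13, a V1rc receptor, read 3.48, 6.37 and 6.20 on Fezf1-/- replicates 1, 2 and 3, against 3.31, 3.48 and 3.27 on the Fezf1+/- arrays. It was high on Fezf1-/- replicates 2 and 3 and stood level with the highest Fezf1+/- array on replicate 1, so the groups overlap. Without Fezf1-/- replicate 1 the difference, Fezf1-/- minus Fezf1+/-, was 2.93 on the log2 scale (SE 0.11, limma adjusted p = 0.00019). Over all 6 arrays it was 2.00 (SE 0.77, limma adjusted p = 0.5). Vmn1r171, a V1rd receptor of a chromosome 7 cluster, read 5.58, 7.80 and 7.19 in Fezf1-/- cells, against 5.11, 4.85 and 4.84 in Fezf1+/- cells. All 3 Fezf1-/- values exceeded all Fezf1+/- values, with replicate 1 the closest to them. The difference was 2.57 without Fezf1-/- replicate 1 (SE 0.19, limma adjusted p = 0.00168) and 1.93 over all 6 arrays (SE 0.55, adjusted p = 0.337).

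In the same chromosome 7 cluster, Vmn1r178 read 4.02, 5.57 and 5.59 in Fezf1-/- cells, against 3.29, 3.34 and 4.19 in Fezf1+/- cells, and Fezf1-/- replicate 1 lay below the highest Fezf1+/- value. Vmn1r180 read 4.11, 6.18 and 6.35 in Fezf1-/- cells, against 4.74, 4.12 and 4.80 in Fezf1+/- cells. Its Fezf1-/- replicate 1 was the lowest of the 6 arrays, while the other 2 Fezf1-/- arrays were the highest. Without Fezf1-/- replicate 1, Vmn1r178 rose by 1.97 (SE 0.27, limma adjusted p = 0.0168) and Vmn1r180 by 1.71 (SE 0.21, limma adjusted p = 0.0112). Vmn1r170 read 2.96, 3.60 and 3.45 in Fezf1-/- cells and 2.88, 2.91 and 3.06 in Fezf1+/- cells, and rose by 0.58 without Fezf1-/- replicate 1 (SE 0.11, adjusted p = 0.0443). It is 92% identical over its first 50 coding bases to Vmn1r176, shown with capitals where Vmn1r170 differs.
Vmn1r176 lies at chr7:23835677-23835726 on the minus strand and Vmn1r170 at chr7:23606175-23606224 on the plus strand.
Vmn1r176: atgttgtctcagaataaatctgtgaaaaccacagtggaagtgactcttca
Vmn1r170: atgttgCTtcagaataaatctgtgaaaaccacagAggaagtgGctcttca
Vmn1r176 read 4.00, 5.96 and 4.88 in Fezf1-/- cells, against 3.71, 3.56 and 4.21 in Fezf1+/- cells, and missed the threshold without Fezf1-/- replicate 1 (difference 1.59, SE 0.33, adjusted p = 0.0655).

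Among the V1rb receptors shown above, Vmn1r40 read 4.48, 5.82 and 5.67 in Fezf1-/- cells, against 4.08, 3.90 and 4.05 in Fezf1+/- cells. The groups did not overlap, and the difference without Fezf1-/- replicate 1 was 1.74 (SE 0.11, limma adjusted p = 0.000716). Vmn1r50 read 4.07, 6.03 and 5.08 in Fezf1-/- cells, against 4.02, 3.88 and 3.90 in Fezf1+/- cells (difference 1.62 without Fezf1-/- replicate 1, SE 0.25, adjusted p = 0.0255). Its neighbour Vmn1r49 read 3.61, 4.29 and 4.41 in Fezf1-/- cells and 3.19, 3.24 and 3.31 in Fezf1+/- cells, again without overlap (difference 1.10, SE 0.10, adjusted p = 0.00306 without Fezf1-/- replicate 1). The order of the Fezf1-/- replicates differed between this pair, which is 91.2% identical over 296 aligned bases of the window around the start, with replicate 2 the highest for Vmn1r50 and replicate 3 for Vmn1r49. Vmn1r44 rose by 0.61 in the same fit (SE 0.09, adjusted p = 0.0248).

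The remaining calls without Fezf1-/- replicate 1 came from another cluster on chromosome 7. Vmn1r89, a V1rj receptor of a group known in mice to detect sulfated estrogens, read 4.48, 5.31 and 5.17 in Fezf1-/- cells, against 4.21, 3.75 and 4.14 in Fezf1+/- cells. The groups did not overlap, and the difference was 1.21 without Fezf1-/- replicate 1 (SE 0.15, adjusted p = 0.0131). The V1rg receptors Vmn1r82 and Vmn1r78 rose by 0.85 (SE 0.12, adjusted p = 0.0171) and 0.77 (SE 0.12, adjusted p = 0.0227) in that fit. The 12 receptors differed by 0.39 to 2.00 over all 6 arrays, with limma adjusted p between 0.266 and 0.666. Of the 12 calls, Vmn1r13, Vmn1r40, Vmn1r49 and Vmn1r171 passed in each of 11 further settings of the fit without Fezf1-/- replicate 1 that could be run on V1r genes, and the other 8 passed in 6 to 9 of them.

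**Figure D2:**
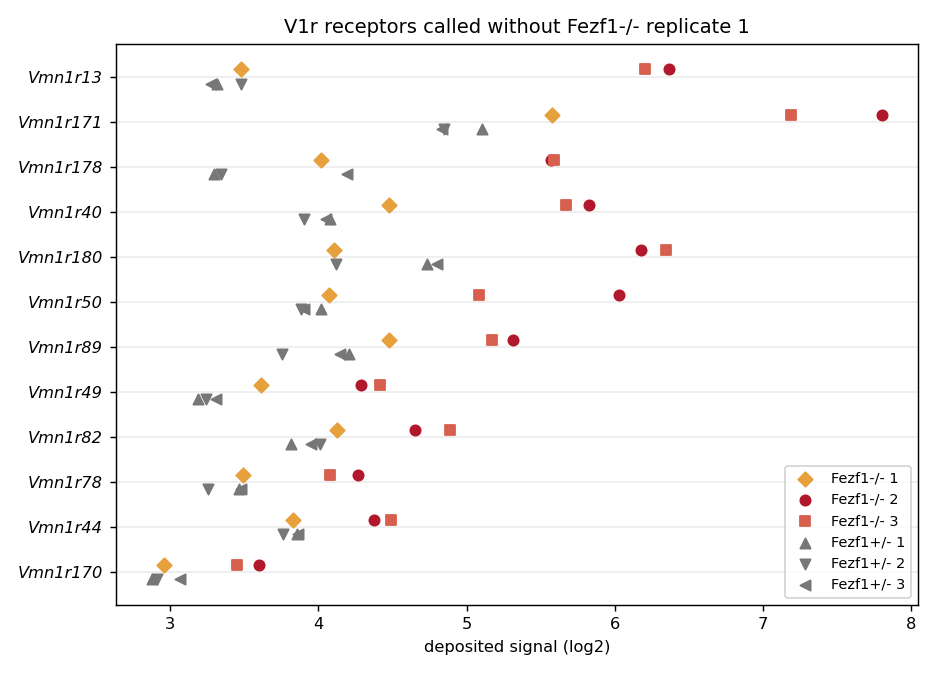
Deposited log2 signal of the 12 V1r receptors called without Fezf1-/- replicate 1, by array, ordered by the size of their difference in that fit. Coloured symbols are Fezf1-/- arrays and grey symbols Fezf1+/- arrays. Fezf1-/- replicates 2 and 3 lie right of the Fezf1+/- arrays in all 12 rows, and Fezf1-/- replicate 1 lies at or near them.

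Read against all genes, 12 of the 119 receptors were called higher without Fezf1-/- replicate 1, where 0.993% of all genes were, and 0 lower, where 1.67% were. Receptors this close to the floor in Fezf1+/- cells had little room to fall, so nothing is read from the counts of lower receptors here or below. Over all 6 arrays limma called 0 of the 119 higher, where 0.0953% of all genes were, and 0 lower, where 0.456% were. Weighting the 6 arrays by their quality in the fit instead gave 13 calls, where 740 of all 19938 genes passed in either direction. Leaving out a further array of the 5 left without Fezf1-/- replicate 1 changed the number of calls, as given at the end beside the counts over all genes. At an unadjusted p under 0.05 over all 6 arrays, 16 V1r receptors were higher (4.23% of all genes) and 0 lower (5.25% of all genes). Those counts were 49 higher without Fezf1-/- replicate 1 (7.63% of all genes) and 0 lower (8.68% of all genes). All 3 Fezf1-/- values lay above all 3 Fezf1+/- values in 28 receptors, where 9.72% of all genes did so, and below them in 0, where 8.77% did. Fezf1-/- replicates 2 and 3 both lay above all Fezf1+/- values in 61 receptors (19.9% of all genes) and below them in 0 (16.3% of all genes). Differences were positive in 109 receptors over all 6 arrays (54.8% of all genes) and in 110 without Fezf1-/- replicate 1 (55.3% of all genes). The median difference of the family was 0.17 over all 6 arrays and 0.27 without Fezf1-/- replicate 1, beside 0.02 over all genes in either fit. Most of the 120 control genes described further on were also positive. Over all 6 arrays 90 of them were positive and 30 negative, with a median of 0.07. Without Fezf1-/- replicate 1 these were 92 and 28, with a median of 0.09.

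The receptors with the smallest p over all 6 arrays were Vmn1r49, Vmn1r89, Vmn1r72, Vmn1r40 and Vmn1r171. Vmn1r72 was the only one of these 5 that moved little, with 3.54, 3.48 and 3.53 in Fezf1-/- cells, against 3.27, 3.21 and 3.18 in Fezf1+/- cells (difference 0.30, SE 0.08, adjusted p = 0.303). At the other end, the lowest differences were -0.25 for Vmn1r58, -0.13 for Vmn1r1, -0.08 for Vmn1r226 and -0.07 each for Vmn1r45 and Vmn1r220. None of these passed, and in each the groups overlapped. The highest Fezf1+/- means belonged to Vmn1r228, Vmn1r171, Vmn1r86, Vmn1r180 and Vmn1r193. Vmn1r193, a V1ri receptor, read 4.42, 4.55 and 4.43 in Fezf1-/- cells, against 4.50, 4.38 and 4.37 in Fezf1+/- cells, and its groups overlapped.

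Each Fezf1-/- array was then set singly against the Fezf1+/- arrays, with no test, since 1 array has no error of its own. A level for background came from 120 genes of families not known for expression in olfactory neurons, namely hair keratin-associated proteins, defensins and bitter taste receptors. The 95th percentile of these genes was 6.41, 6.75 and 6.52 on Fezf1-/- replicates 1, 2 and 3, against 6.53, 6.39 and 6.19 on the Fezf1+/- arrays. The median of all genes was 6.43 to 6.48 over the arrays, so this level lay near the median gene. A receptor below it is therefore not shown to be unexpressed. By this level Vmn1r171 alone left background, on Fezf1-/- replicates 2 and 3, and 0 receptors lay above it on Fezf1-/- replicate 1 or on any Fezf1+/- array. The level follows the keratin-associated genes, which read highest of the 3 families, and it moves the count. At the 90th percentile 10 receptors left background on Fezf1-/- replicate 2 and 6 on replicate 3. With bitter taste receptors alone, a choice made after the values were seen, the counts were 14 and 5, and in both cases 0 left background on replicate 1. The 95th percentile of the bitter taste receptors was 4.34 to 4.73 over the arrays. Vmn1r171 read 4.84 to 5.11 on the Fezf1+/- arrays, already above that level, so by it Vmn1r171 did not leave background.

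Measured against its own Fezf1+/- values, a receptor was counted where a Fezf1-/- array exceeded the highest Fezf1+/- array by at least 1 log2 unit. That held for 18 V1r receptors on Fezf1-/- replicate 2 (0.406% of all genes) and 8 on replicate 3 (0.291% of all genes). On Fezf1-/- replicate 1 it held for 0 V1r receptors (4.34% of all genes). Of the 120 control genes 0 did so on any Fezf1-/- array. The 8 on replicate 3 were Vmn1r13, Vmn1r40, Vmn1r49, Vmn1r50, Vmn1r171, Vmn1r174, Vmn1r178 and Vmn1r180, and Vmn1r49 and Vmn1r174 missed the step on replicate 2. Vmn1r174, named after its values were seen, read 4.08, 4.93 and 5.59 in Fezf1-/- cells, against 3.93, 4.38 and 4.23 in Fezf1+/- cells.

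Some receptors exceeded the highest Fezf1+/- array by at least 1 log2 unit on Fezf1-/- replicate 2 alone. Some of these, such as Vmn1r18 and Vmn1r228, lay above that array by less on replicate 3, and others, such as Vmn1r86, did not. Apart from Vmn1r86 and Vmn1r228, those given here are also named after their values were seen. Vmn1r27 read 3.64, 6.37 and 3.73 in Fezf1-/- cells, against 3.78, 3.42 and 3.66 in Fezf1+/- cells. Vmn1r87, the V1rk receptor, read 4.00, 5.93 and 4.07 in Fezf1-/- cells, against 3.65, 3.43 and 3.73 in Fezf1+/- cells. On Fezf1-/- replicate 3 Vmn1r27 lay -0.04 and Vmn1r87 lay 0.34 from the highest Fezf1+/- value. Neither passed without Fezf1-/- replicate 1 (adjusted p = 0.359 and 0.223 by limma). Vmn1r86 (6.02), Vmn1r18 (5.44), Vmn1r224 (5.16), Vmn1r208 (5.15), Vmn1r43 (4.91), Vmn1r206 (4.75) and Vmn1r230 (4.65) likewise had their highest value on Fezf1-/- replicate 2 and missed the threshold in both fits. Vmn1r228, a V1re receptor, read 4.69, 6.32 and 5.78 in Fezf1-/- cells, against 4.64, 4.94 and 5.26 in Fezf1+/- cells (difference 1.10 without Fezf1-/- replicate 1, SE 0.22, adjusted p = 0.0617).

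Family-wide, the V1r median lay 0.03, 0.38 and 0.14 above the Fezf1+/- mean on Fezf1-/- replicates 1, 2 and 3, and the control families lay 0.03, 0.08 and 0.09 above it. The summed linear signal of the 119 receptors was 1443, 2561 and 1957 on the Fezf1-/- arrays, against 1401, 1358 and 1409 on the Fezf1+/- arrays. Fezf1-/- replicate 2 was thus the highest by either measure and replicate 1 the closest to the Fezf1+/- arrays. More receptor RNA per cell and more receptor-positive cells cannot be told apart in such bulk samples.

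**Figure D3:**
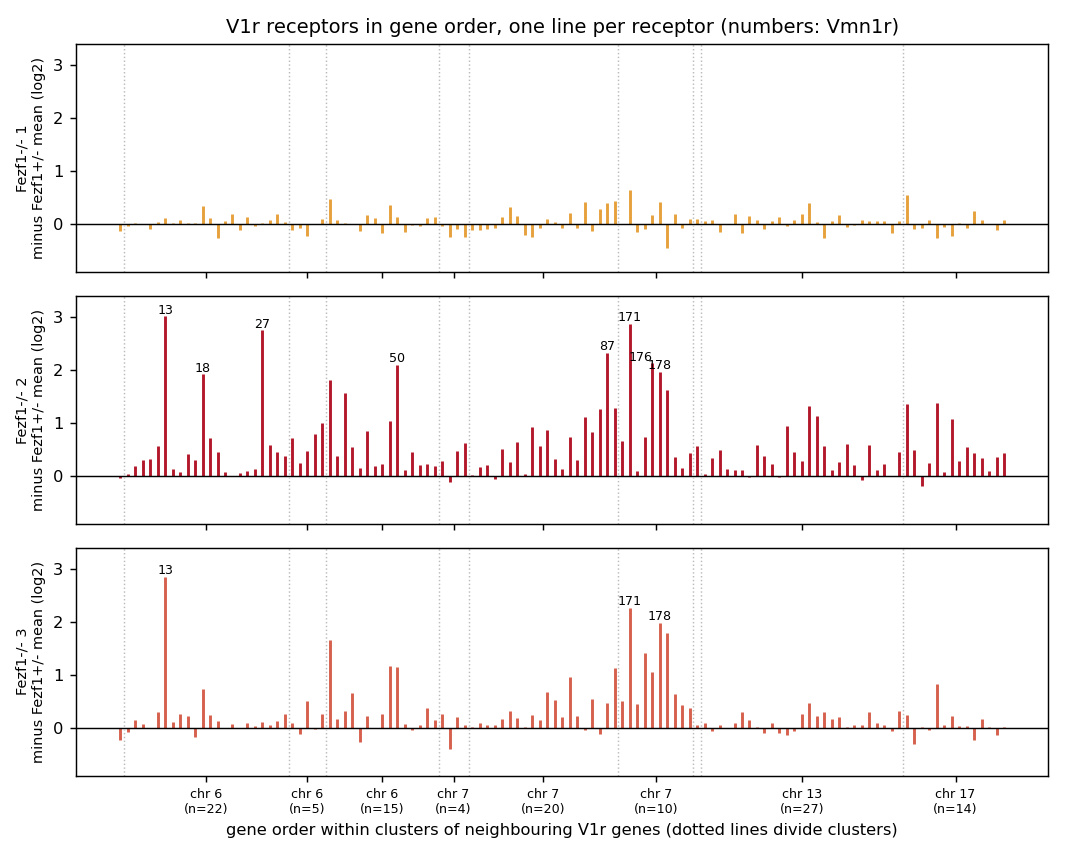
Signal of each V1r receptor on a Fezf1-/- array minus its Fezf1+/- mean (log2, 1 line per receptor), in gene order by chromosome, with dotted lines between clusters. Numbers mark Vmn1r receptors more than 1.9 above the Fezf1+/- mean, of which there are 8 on replicate 2 and 3 on replicate 3.

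By position, receptors were grouped into 10 clusters wherever more than 1 Mb separated neighbouring measured V1r genes in RefSeq (GRCm38.p6), which was settled after the values were known. Without Fezf1-/- replicate 1, calls came from 4 of them, to be read beside 0.993% of all genes called higher and 7.63% higher at an unadjusted p under 0.05. The chromosome 7 cluster from Vmn1r170 to Vmn1r183, mostly V1rd genes, had 4 of 10 called and a median difference of 0.83. The chromosome 6 cluster of V1ra and V1rb genes from Vmn1r40 to Vmn1r54 had 4 of 15 called, with a median of 0.27. The chromosome 7 cluster from Vmn1r66 to Vmn1r89 had 3 of 20 called (median 0.38), and the chromosome 6 cluster of V1rc genes from Vmn1r4 to Vmn1r30 had 1 of 22 (median 0.18). The other 2 large clusters had 0 called. On chromosome 13, the 27 genes, mostly V1rh and V1ri, from Vmn1r188 to Vmn1r222 had 7 higher at an unadjusted p under 0.05 and a median of 0.16. On chromosome 17, the 14 genes from Vmn1r224 to Vmn1r237 had 3 higher at an unadjusted p under 0.05 and a median of 0.14. Differences between clusters were not tested.

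Genes that work beside V1r receptors in apical vomeronasal neurons were read from a list of 9, of which 8 were measured by a probe set with 1 symbol. Trpc2, the transduction channel of these neurons, was not analysed here. Over all 6 arrays limma called 2 of the 8 higher (0.0953% of all genes) and 0 lower (0.456% of all genes). Gnai2, the G protein subunit these receptors use, read 10.47, 10.36 and 10.36 in Fezf1-/- cells, against 9.20, 9.42 and 9.06 in Fezf1+/- cells (difference 1.17, SE 0.12, adjusted p = 0.0201). Adcy2, an adenylate cyclase, read 6.97, 7.42 and 7.08 in Fezf1-/- cells, against 5.59, 5.98 and 5.37 in Fezf1+/- cells (difference 1.51, SE 0.20, adjusted p = 0.0467). Both exceeded all Fezf1+/- values on each Fezf1-/- array, as 28 of the 119 V1r receptors and 9.72% of all genes did. The other 6, namely Gng8, Meis2, Nrp2, Pde4a, Ano1 and Ano2, did not pass in either fit. Their differences over all 6 arrays ran from -1.32 for Ano2, a chloride channel that mature olfactory neurons also use, to 0.51 for Ano1. Ano1 was high on Fezf1-/- replicate 1 alone. Without that array the differences ran from -0.72 for Ano2 to 0.40 for Nrp2, with Ano1 at -0.06. Gnai2 and Adcy2 were also the 2 called higher without Fezf1-/- replicate 1 (0.993% of all genes), Gnai2 at 1.13 and Adcy2 at 1.61. In that fit 0 of the 8 were called lower (1.67% of all genes).

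The V2r receptors, the other large vomeronasal family, belong to basal neurons. Without Fezf1-/- replicate 1, 1 of 46 was called higher, where 0.993% of all genes were, and 0 over all 6 arrays, where 0.0953% were. Differences without Fezf1-/- replicate 1 were positive in 35 (55.3% of all genes) and negative in 11. An unadjusted p under 0.05 was reached by 7 of the positive ones, where 7.63% of all genes were higher at that p. It was reached by 1 of the negative ones, where 8.68% of all genes were lower. The 1 called was Vmn2r1, a receptor that basal neurons broadly share. It read 5.78, 7.24 and 6.19 in Fezf1-/- cells, against 4.09, 4.21 and 4.47 in Fezf1+/- cells, and so was above the Fezf1+/- range on Fezf1-/- replicate 1 too. Its difference without Fezf1-/- replicate 1 was 2.46 (SE 0.29, limma adjusted p = 0.00995). The V2r median lay -0.04, 0.19 and 0.04 from the Fezf1+/- mean on Fezf1-/- replicates 1, 2 and 3. Of 8 measured genes on a list for basal vomeronasal neurons, 0 passed over all 6 arrays (0.0953% of all genes higher, 0.456% lower). Vmn2r1 alone passed without Fezf1-/- replicate 1 (0.993% of all genes higher, 1.67% lower). Whether V1r and V2r receptors differed in their response was not tested.

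Fezf1-/- replicate 1, on which V1r receptors stayed low, also differed in its cell type markers. The 13 measured mesenchyme and bone markers were a median of 3.11 above the Fezf1+/- mean on it, with 11 at least 1 log2 unit above the highest Fezf1+/- value. Their summed linear signal was 1430 to 19587 in Fezf1-/- cells and 1304 to 2814 in Fezf1+/- cells, the highest on Fezf1-/- replicate 1. The 14 myeloid markers were a median of 2.06 above the Fezf1+/- mean on that array (13 past the 1-unit step), and their sums were 620 to 3771 in Fezf1-/- cells and 546 to 723 in Fezf1+/- cells. The 7 ensheathing glia markers were a median of 1.64 above it (4 past the step), with sums of 689 to 5503 in Fezf1-/- cells and 598 to 927 in Fezf1+/- cells. Neuronal markers ran the other way, the 16 mature olfactory neuron markers lying -2.27 and the 13 immature neuron markers -0.95 from the Fezf1+/- mean on Fezf1-/- replicate 1. Sums over the mature markers were 4543 to 13721 in Fezf1-/- cells and 19254 to 26528 in Fezf1+/- cells, and over the immature markers 20035 to 43270 in Fezf1-/- cells and 35193 to 39826 in Fezf1+/- cells. On Fezf1-/- replicates 2 and 3 the medians of the mesenchyme, myeloid and glial lists lay between -0.14 and 0.16 of the Fezf1+/- mean. The neuronal lists moved on these 2 arrays too, the mature markers lying -0.92 and -0.84 and the immature markers 0.32 and 0.29 from it. Without Fezf1-/- replicate 1, limma called 6 of the 16 mature markers lower (1.67% of all genes) and 3 of the 13 immature markers higher (0.993% of all genes). No marker was at 0, since the array values have a positive floor, and the part of these marker differences in the V1r result was not tested.

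**Figure D4:**
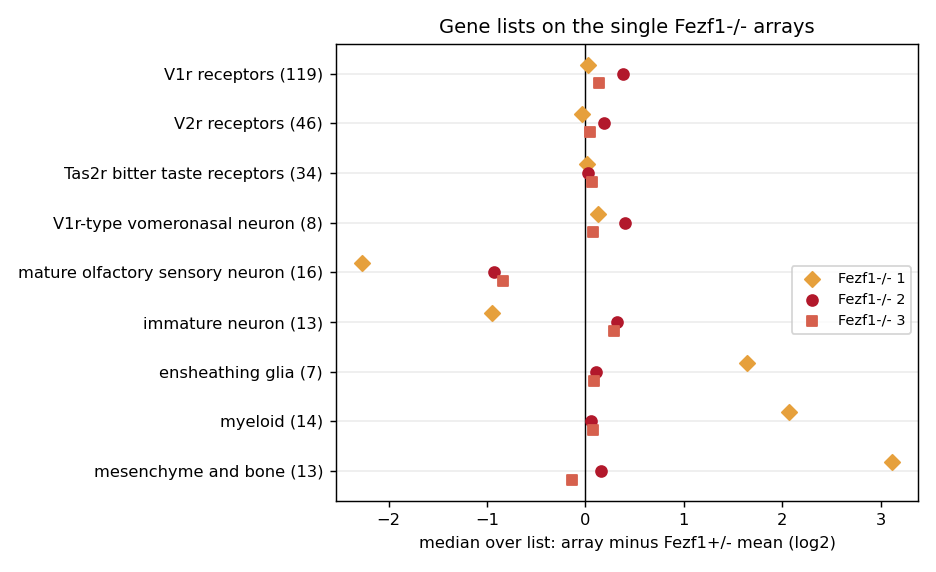
Median over each gene list of the signal on a single Fezf1-/- array minus the Fezf1+/- mean (log2), with the number of measured genes in brackets. Fezf1-/- replicate 1 lies far from replicates 2 and 3 for neuronal, glial, myeloid and mesenchyme lists, and V1r receptors are highest on replicate 2 (0.38).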

How the data were processed

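The authors deposited log2 signals per probe set. The submitters' processing notes name Affymetrix Expression Console and GCRMA. Order, versions and genome build are not given in the sources used here, and the log base was taken as 2 from the range of 2.14 to 14.5. GCRMA subtracts an estimated background, so differences near the bottom of the range, where V1r receptors lie, depend on that estimate. Scanner files were not used here, and precision is limited by the number of arrays, 3 per group.

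Of 35557 probe sets, 21789 carried 1 symbol in the 2016 platform annotation, which gave 19938 genes after an update through Entrez numbers. A further 28 probe sets carried several V1r symbols and were left out. Fezf1-/- and Fezf1+/- arrays were compared in R 4.3.3 by limma 3.58.1, with lmFit followed by eBayes (two-sided, Benjamini-Hochberg over all genes, threshold 0.05), with no filter. The fit was also run on simulated data, where every array had the spread of the Fezf1+/- arrays. No simulated array stood apart, so that run cannot show how the fit behaves with Fezf1-/- replicate 1. An exact test of 3 against 3 cannot go below p = 0.1 and was not run.

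Receptors named were those called in either fit, those that left background, and the 5 each with the smallest p, highest Fezf1+/- mean and lowest difference. Receptors named outside that rule, the 1-unit step without a ceiling and all alternatives within the fit without Fezf1-/- replicate 1 were added after seeing the data. The members and lists were chosen with earlier results of these data known. Arrays that share a replicate number were not treated as pairs in the main fits. Deviations of same-numbered arrays from their group means correlated at 0.23, -0.33 and 0.54. Because Fezf1-/- replicate 1 stood apart, replicates 2 and 3 deviated alike, for example at -0.33 and -0.35 against Fezf1+/- replicate 2. These correlations therefore cannot settle whether the arrays were paired.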

Additional observations from a re-analysis of the deposited data

Results flagged for a closer look

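Probe sets that carry several V1r symbols were outside the comparison, since no single receptor can be named from them, and their signal in Fezf1-/- cells exceeded that in Fezf1+/- cells. On Fezf1-/- replicate 2, 18 of these 28 probe sets lay at least 1 log2 unit above their highest Fezf1+/- value, on replicate 3 there were 8, and on replicate 1 there was 1. The 28 are not separate readings, since 3 of them hold identical values on all 6 arrays, and over the 26 distinct sets of values the counts were 18 on replicate 2, 6 on replicate 3 and 1 on replicate 1. The medians of the 28 were 4.24, 5.64 and 5.06 on Fezf1-/- replicates 1, 2 and 3, against 4.20, 4.24 and 4.11 on the Fezf1+/- arrays. All 28 had a higher mean in Fezf1-/- cells, with a median difference of 0.75 (0.74 over the 26), and no test was run. The highest values reached 8.40 on Fezf1-/- replicate 2 and 7.95 on replicate 3, against 5.89 at most on a Fezf1+/- array.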

How the results depend on the processing

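Over all 6 arrays, 0 V1r receptors passed in limma under quantile normalisation, median centring, averaged probe sets, trended and robust eBayes, and the replicate block. With array weights 13 passed, 53 had an unadjusted p under 0.05 and 740 of all genes passed, and the cause was not tested. Counts at an unadjusted p in this paragraph stand without the share of all genes, and nothing is read from them. The filter on genes above the median mean left no V1r receptor to test, and 24 of all genes passed. Leaving out 1 array gave 0 to 12 V1r receptors, 5 to 49 at an unadjusted p under 0.05 (16 with all arrays, 12 with the replicate block), family medians of 0.07 to 0.27 and 40 to 531 of all genes. Of these, only the fit without Fezf1-/- replicate 1 called any V1r receptor, and the other 5 gave 5 to 10 at an unadjusted p. Starting from the 5 arrays without it (12 V1r receptors, and 12 with the replicate block, where Vmn1r44 and Vmn1r170 no longer passed), leaving out a further array gave 5 to 15 V1r receptors, 26 to 64 at an unadjusted p, medians of 0.14 to 0.39 and 128 to 618 of all genes. The lowest V1r count, 5, came without Fezf1-/- replicate 2, where 1 Fezf1-/- array remained and was assumed to vary like the Fezf1+/- arrays, and it was 7 without Fezf1+/- replicate 2. Array weights gave 904 of all genes in that fit.

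On Fezf1-/- replicates 1, 2 and 3, V1r receptors above the background level numbered 0, 1 and 1. They were 1, 11 and 7 at the 90th percentile, with 10 and 6 that left background on replicates 2 and 3, and 0 on replicate 3 at the 99th by either count. With bitter taste receptors alone they were 2, 25 and 14, with 14 and 5 that left background.

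Signs turned only for receptors that were not called. Over all 6 arrays Vmn1r45 came to 0.017 with array weights. Leaving out 1 array gave -0.19 to 0.017 for Vmn1r45 and -0.14 to 0.0018 for Vmn1r220. Starting from the 5 arrays without Fezf1-/- replicate 1, Vmn1r220 came to 0.023 with median centring, and leaving out a further array gave -0.091 to 0.048 for Vmn1r220, -0.26 to 0.15 for Vmn1r45, -0.19 to 0.026 for Vmn1r226 and -0.11 to 1.27 for Vmn1r86.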
